A study of Mus musculus with 47 samples.

Results

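Cytosolic ribosomal proteins were followed in the tibialis anterior, a fast-fibred shin muscle, of 47 female C57BL/6 mice, with 1 RNA-seq library per mouse. The members were the rows of the deposited table annotated as protein-coding whose mouse symbol is Rpl or Rps followed by a digit, or Rpsa, Rplp0, Rplp1 or Rplp2, without Rps6k genes and pseudogenes. Of 128 rows with such a name, 83 of the 13500 in the table were kept and 45 left out, most of them pseudogenes. They comprised 42 large-subunit proteins, 31 small-subunit proteins, 3 proteins of the stalk, 6 paralogues that stand in for or resemble a core protein, and Rps19bp1, which has the name but is a protein that binds Rps19. Rpl24, Rpl10l and Rpl39l are not analysed here. All 83 passed the filter on low values (at least 1 FPKM in at least 3 libraries), as did 12000 genes in all.

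The mice were killed at ZT12 or ZT0, where ZT counts hours from lights on, and fed freely. RE-RE mice carry Bmal1(stopFL/stopFL), a blocked clock gene, with Syt10-Cre(-/tg) and Hsa-Cre(-/tg), which restore it in brain (the Synaptotagmin 10 driver) and in skeletal muscle (the human skeletal actin driver), so their other tissues lack it. They had adrenalectomy (ADX, 8 to 18 weeks old) or sham surgery (9 to 14 weeks). Wild-type (WT) mice had ADX and 5 mg/kg of the synthetic glucocorticoid dexamethasone (ADX+DEX, 11 to 14 weeks), ADX and 0.5 mg/kg of adrenaline (ADX+ADR, 13 to 14 weeks), ADX alone (12 to 17 weeks) or sham surgery (9 to 12 weeks). Hormones were injected intraperitoneally at ZT12 for 10 days. Adrenalectomized mice drank 0.9% saline with 1% glucose. There were 3 libraries of WT ADX at ZT0 and 4 in each of the other groups, 12 in all. No vehicle-injected condition is among them, so injection and hormone cannot be told apart, and in injected mice ZT0 and ZT12 also differ in time since a dose. Age differed between groups as given, and condition and age can be separated only through a covariate.

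A ribosome joins a small subunit, which holds the messenger RNA and decodes it, to a large subunit, which forms peptide bonds and guides the new chain out through a tunnel. Each protein is made in step with the ribosomal RNA, and excess copies are degraded. Most of these messenger RNAs begin with a terminal oligopyrimidine (TOP) motif, a C followed by a run of pyrimidines, through which the kinase mTORC1 controls how much of them is translated. In skeletal muscle, ribosome content is a known component of growth, and glucocorticoids are known to cause atrophy there. Striated muscle also replaces Rpl3 with its own form, Rpl3l.

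The starts of members that later results turn on are printed first, namely paralogues and their partners, stalk proteins, genes often used as references in PCR, and others named in the comparisons. Rpl3 and Rplp1 are named only. Each window has 25 bases before the annotated start and 20 from it, 5′ to 3′ on the gene's strand, from RefSeq on GRCm38.p6. Capitals mark a pyrimidine tract, defined as a C and at least 4 further pyrimidines starting within 5 bases of the start.
Rpl22l1, chr3:28805483-28805527, plus strand: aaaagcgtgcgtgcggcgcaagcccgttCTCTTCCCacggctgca
Rpl22, chr4:152325701-152325745, plus strand: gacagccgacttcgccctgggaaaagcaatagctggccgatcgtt
Rps27, chr3:90213629-90213673, minus strand: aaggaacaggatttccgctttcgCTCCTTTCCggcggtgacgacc
Rps27l, chr9:66946061-66946105, plus strand: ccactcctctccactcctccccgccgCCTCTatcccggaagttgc
Rpl36a, chrX:134585629-134585673, plus strand: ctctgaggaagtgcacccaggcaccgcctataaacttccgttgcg
Rpl36al, chr12:69184048-69184092, minus strand: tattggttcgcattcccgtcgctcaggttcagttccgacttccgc
Rpl3l, chr17:24727801-24727845, plus strand: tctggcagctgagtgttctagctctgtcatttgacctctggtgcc
Rplp0, chr5:115559442-115559486, plus strand: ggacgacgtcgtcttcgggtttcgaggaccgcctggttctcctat
Rplp2, chr7:141447626-141447670, plus strand: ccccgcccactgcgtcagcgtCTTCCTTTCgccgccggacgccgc
Rpl13a, chr7:45128726-45128770, minus strand: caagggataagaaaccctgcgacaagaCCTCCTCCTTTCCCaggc
Rps18, chr17:33955646-33955690, minus strand: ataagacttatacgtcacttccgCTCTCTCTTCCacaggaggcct
Rps6, chr4:86857348-86857392, minus strand: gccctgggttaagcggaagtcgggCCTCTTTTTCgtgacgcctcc
Rpl35a, chr16:33056428-33056472, plus strand: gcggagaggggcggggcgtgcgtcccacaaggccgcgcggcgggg
Rpl18, chr7:45718046-45718090, plus strand: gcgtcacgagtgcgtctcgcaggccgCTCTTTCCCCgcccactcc
Rps12, chr10:23787190-23787234, minus strand: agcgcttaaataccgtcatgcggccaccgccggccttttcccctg
Rpl5, chr5:107900503-107900547, plus strand: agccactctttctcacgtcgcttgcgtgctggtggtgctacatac

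A promoter window of 300 bases was at hand for 63 of the 83 members. A gene with several listed starts was counted if any of them held the letters, and its first listed start is the one printed. The tract at the start was found in 30 of them (47.6%), against 5718 of 27025 genes (21.2%). Rpl22, Rpl36a, Rpl36al, Rpl3l, Rplp0, Rpl35a, Rps12 and Rpl5 had none at the start printed. The letters CCGGAAG, the core of an ETS factor motif, read on either strand, were in 25 members (39.7%) against 9.9% of all genes, and AAGATGG, the core of a YY1 motif, in 10 (15.9%) against 7.3%. In WT ADX+DEX against WT ADX at ZT12, the median log2 change was 0.30 in the 30 with a tract, of which 25 rose, and 0.34 in the 33 without, of which 28 rose. These letters are a description of the annotated starts and were not tested as sites.

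The values are FPKM (fragments per kilobase of exon, scaled to library size), deposited on a log2 scale, and the table holds no counts, so no interval based on reads is given. The labels give a mean depth per sample only for the study as a whole. The tissue label was checked against the fibre genes, of which Acta1 stood at a mean of 19720 FPKM and Ckm at 13160, while the satellite cell gene Pax7 averaged 0.644. Arntl (Bmal1), the gene restored in RE-RE mice, read 13.4 to 15.2 FPKM in RE-RE sham and 14.2 to 18.8 in WT sham at ZT0, and 7.22 to 11.4 in RE-RE ADX and 5.82 to 9.28 in WT ADX. In 40 libraries low values agreed exactly with another library of the same group, 16 to 80 values each, and in 7 libraries at most 1 did. These 7 are WT sham ZT0 replicate 4, WT sham ZT12 replicate 8, RE-RE sham ZT0 replicate 2, RE-RE sham ZT12 replicate 6, RE-RE ADX ZT0 replicates 1 and 4, and RE-RE ADX ZT12 replicate 5. The libraries within a group may therefore share some processing, which would make p-values too small. Counts that move by over 1.5 times without the 7 are given in both forms.

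Members differed widely in level, with means over all 47 libraries given here. Rplp1 of the stalk was highest at 355 FPKM, followed by Rpl4, a lining of the exit tunnel, at 312, the muscle paralogue Rpl3l at 308, Rpl8 at 243 and Rplp0 at 183. These 5 made up 30.0% of the summed FPKM of the members. The median member stood at 32.6 FPKM, against 4.28 for all tested genes, with 12 members over 100 FPKM and 8 under 10. At the low end were Rpl3 at 7.59, Rpl22l1 at 7.01, Rpl35a at 6.63, Rps19 at 6.33, Rpl21 at 2.89 and the retrocopy Rps27rt at 0.925 FPKM. Reads may be shared with copies. A pseudogene row existed for 33 members, and in 16 it summed to over 10% of the member's own mean. Rpl10a stood at 14.4 FPKM against 17.6 in its pseudogene rows, Rpl36a at 12.0 against 17.4 and Rpl21 at 2.89 against 7.89. In Rpl31, Rps10, Rpl14, Rpl9, Rpl17, Rps19, Rpl28 and Rps16 the pseudogene rows summed to less than the member, at 15.3 against 24.5 FPKM for Rpl31, 10.4 against 19.3 for Rps10, 43.4 against 85.3 for Rpl14 and 2.66 against 6.33 for Rps19. In Rpl36, Rpl37, Rpl38, Rps25 and Rps15a they were a smaller part. The levels of these 16 are uncertain. Levels of all members also rest on the exon length by which FPKM divides. All annotated exons together span 499 bases in Rplp1 and 2007 in Rpl4 at the high end. At the low end they span 4685 in Rps19, 3526 in Rpl35a, 3400 in Rpl21, 3175 in Rpl3 and 1989 in Rpl22l1. The order of members by level is thus uncertain as well.

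**Figure D1:**
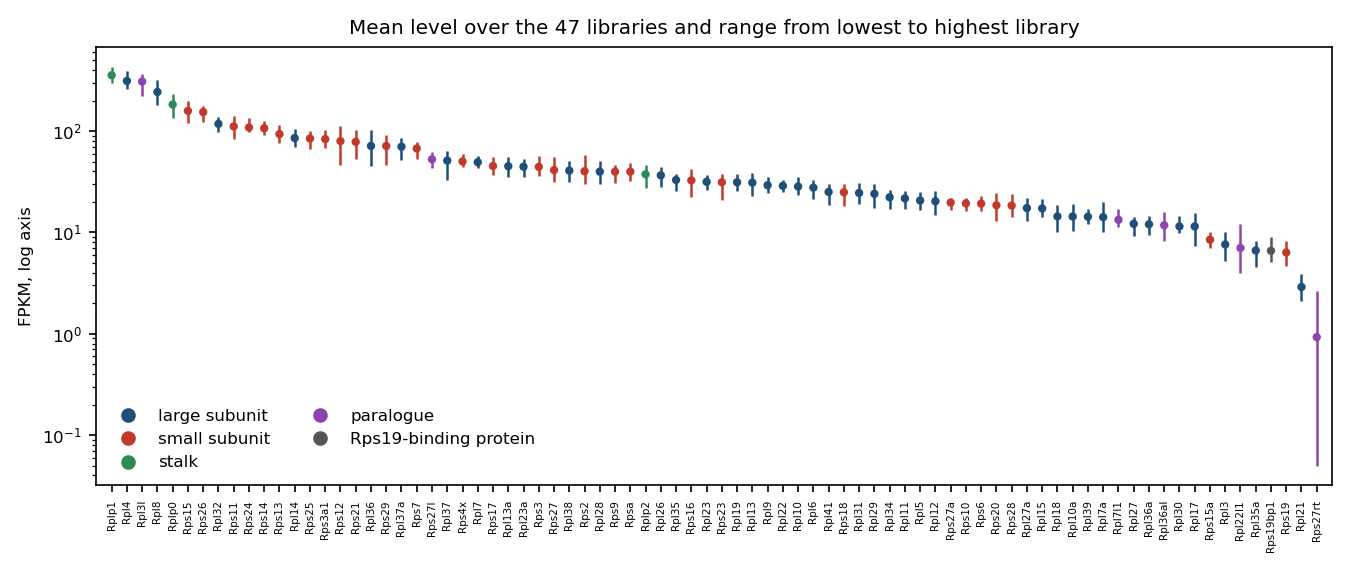
Level of 80 members in FPKM on a log axis, coloured by role and ordered by mean, with the lowest and highest of the 47 libraries. Most members sit between 10 and 100 FPKM with a narrow range, and Rps27rt, whose lowest value is listed at 0, is drawn down to a floor of 0.05.

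Members varied little within a group. The SD within groups, pooled over the 12 groups on the log2 scale, had a median of 0.0811 over members and 0.129 over all tested genes. These sets were not matched for level, with medians of 32.6 FPKM for members and 4.28 for all tested genes. The narrower spread is therefore not shown to be particular to members. Across the 12 group means the widest ranges were those of Rpl22l1 (1.18 on the log2 scale), Rps12 (0.754), Rps2 (0.728) and Rpl8 (0.693), leaving out Rps27rt, and those of Rpl39 (0.226) and Rps4x (0.244) were among the narrowest. All 83 members differed somewhere among the 12 groups by limma's F-test, as did 94.6% of all tested genes. The group in which a member was highest was WT ADX+DEX at ZT0 for 28 members, WT ADX+DEX at ZT12 for 25 and RE-RE sham at ZT12 for 18. The lowest group was WT sham at ZT0 for 59 members and WT ADX at ZT12 for 10.

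The 76 subunit proteins were also summed per library. Their sum was 4336 ± 77.8 FPKM in RE-RE ADX at ZT12, from 4264 to 4436, and 4158 ± 35.4 at ZT0, from 4134 to 4209 (mean ± SD, n = 4 each). RE-RE sham had 4593 ± 105 at ZT12, from 4484 to 4735, and 4142 ± 41.2 at ZT0, from 4091 to 4192. The times did not overlap in either RE-RE condition. WT ADX+DEX had 4821 ± 292 at ZT12 and 4821 ± 176 at ZT0, and WT ADX+ADR had 4535 ± 232 and 4425 ± 199.7 in the same order. WT ADX alone stood at 3831 ± 91.3 at ZT12 and 3859 ± 134 at ZT0 (n = 3). WT sham had 4012 ± 145 at ZT12, from 3873 to 4179, and 3644 ± 201 at ZT0, from 3456 to 3927. The times overlapped in all 4 WT conditions. All 83 members made up 0.920% to 1.32% of a library's summed FPKM. By this share the groups ranked otherwise than by the sum. Its mean was 1.23% in WT ADX+DEX at both times and 1.23% in RE-RE ADX at ZT12. In WT ADX it was 1.10% at ZT12 and 1.16% at ZT0, against 1.04% and 0.979% in WT sham. At ZT0 the shares of WT ADX+DEX (1.16% to 1.32%) and WT ADX (1.13% to 1.18%) overlapped. The median of all tested genes in a library lay at most 0.036 on the log2 scale from the mean of these medians over libraries. In bulk muscle, fewer cells of a type and less RNA per cell cannot be told apart.

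**Figure D2:**
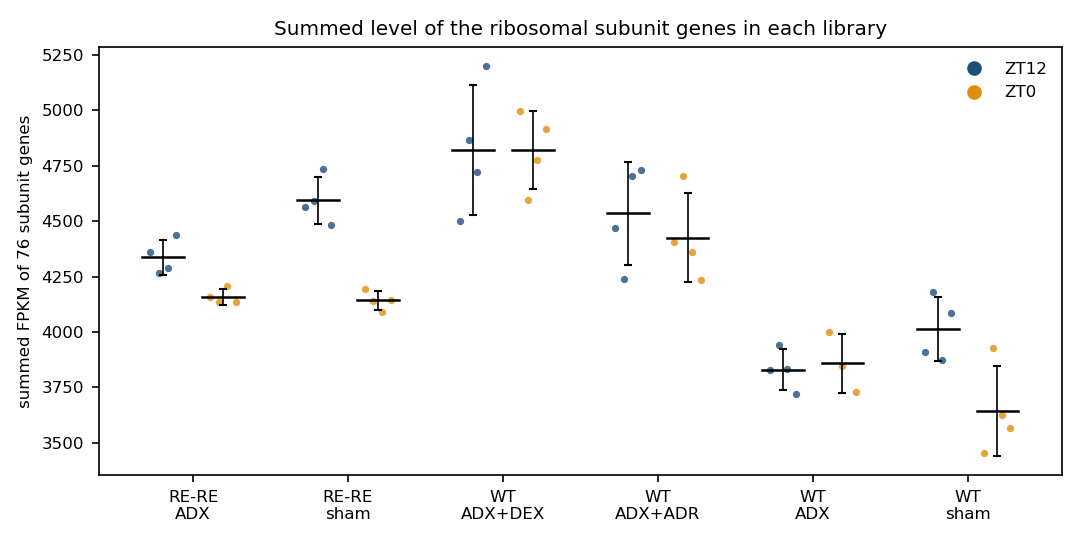
Summed FPKM of the 76 subunit proteins in each of the 47 libraries (points) with the mean ± SD of each group (bars), ZT12 left of ZT0 in each condition. WT ADX+DEX is highest at both times, at a mean of 4821 FPKM, and WT sham at ZT0 is lowest, at 3644 FPKM.

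Dexamethasone after ADX was compared with ADX alone to show what the hormone and its injection changed in muscle without adrenals. Ribosomal proteins of both subunits were higher in WT ADX+DEX. At ZT12, 72 of the 83 members rose and 2 fell, and of all 12000 genes 66.3% were called, 34.6% as rises and 31.7% as falls. At ZT0, 63 rose and 4 fell, and of all genes 68.9% were called, 36.4% as rises and 32.5% as falls. The median log2 change was 0.33 over members and 0.02 over all tested genes at ZT12, and 0.31 and 0.04 at ZT0. By role, 36 of 42 large-subunit proteins, 29 of 31 small-subunit proteins and 3 of 3 stalk proteins rose at ZT12. The values of 65 members lay above all WT ADX values at ZT12 (31.0% of all genes did) and those of 3 below (28.4%).

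Rpl22l1, a paralogue of Rpl22 whose expression Rpl22 is known to repress, had the largest rise among members at both times. It had 8.82, 8.63, 9.92 and 11.9 FPKM in WT ADX+DEX, against 4.97, 4.19, 4.26 and 5.66 FPKM in WT ADX at ZT12, a log2 change of 1.04 ± 0.15 (SE, adjusted p = 1.7e-07). At ZT0 it had 10.1, 10.1, 10.8 and 12.1 FPKM in WT ADX+DEX, against 5.70, 5.55 and 4.75 FPKM in WT ADX, a change of 1.01 ± 0.16 (SE, adjusted p = 8.9e-07). All treated libraries lay above all WT ADX libraries at both times. Rpl22 itself had changes of 0.03 (adjusted p = 0.52) and 0.02 (adjusted p = 0.69). Rpl18, a large-subunit protein, changed by 0.57 (adjusted p = 3.5e-11) at ZT12. Among other large-subunit proteins, Rpl7a rose by 0.61 at ZT12 and Rpl36 by 0.67 at ZT0. Rpl7a had 16.7, 19.2, 16.3 and 19.9 FPKM in WT ADX+DEX, against 12.4, 12.7, 11.2 and 10.9 FPKM in WT ADX at ZT12 (adjusted p = 8.2e-09), and Rpl36 had 103, 80.9, 86.8 and 95.3 FPKM in WT ADX+DEX, against 58.8, 61.9 and 52.0 FPKM in WT ADX at ZT0 (adjusted p = 1.3e-05). In the small subunit, Rps19, whose loss in humans causes Diamond-Blackfan anaemia, had 7.23, 7.83, 8.12 and 7.95 FPKM in WT ADX+DEX, against 5.02, 5.20, 5.73 and 5.00 FPKM in WT ADX at ZT12, a change of 0.57 ± 0.061 (SE, adjusted p = 2.4e-10), with the limit of its pseudogenes. Rps2, which lies at the messenger RNA entry site, had 56.0, 50.7, 51.2 and 58.4 FPKM in WT ADX+DEX, against 38.8, 34.7 and 30.9 FPKM in WT ADX at ZT0, a change of 0.64 ± 0.072 (SE, adjusted p = 8e-10). None of these groups overlapped.

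At ZT12 Rpl3 and Rps27l fell, and at ZT0 Rpl3, Rpl27, Rps27l and Rps27rt. Rpl3, which reaches the peptidyl transferase centre, had 6.52, 6.65, 6.66 and 5.49 FPKM in WT ADX+DEX, against 7.76, 7.95, 7.89 and 8.09 FPKM in WT ADX at ZT12, a change of -0.33 ± 0.091 (SE, adjusted p = 0.0018). Its change at ZT0 was -0.34 (adjusted p = 0.0024), and the groups did not overlap at either time. Rps27l fell by 0.16 at ZT12 and 0.20 at ZT0 (adjusted p = 0.0038 and 0.0013), while its paralogue Rps27 rose by 0.45 and 0.38 (adjusted p = 9.6e-07 and 4.5e-05). Rpl27 fell at ZT0, with 11.3, 11.3, 12.1 and 13.0 FPKM in WT ADX+DEX, against 14.1, 14.0 and 13.2 FPKM in WT ADX, a change of -0.21 ± 0.071 (SE, adjusted p = 0.0092). Of the ribosomal parts outside the naming rule, Fau, which is made as a fusion with a ubiquitin-like protein, changed by 0.53 (adjusted p = 2.7e-09) at ZT12. Rack1, a scaffold on the small subunit, changed by 0.54 (adjusted p = 1.3e-14) at ZT12.

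Markers of other cell types moved with these groups. The 6 endothelial markers summed to 73.0 to 88.4 FPKM in WT ADX+DEX at ZT12, against 173 to 184 in WT ADX, and all 6 fell at both times, with no marker listed at 0 in every library. The 5 adipocyte markers summed to 8.99 to 194 FPKM against 1885 to 2233 at ZT12, with 1 of 5 past the test, the fall of Car3. Nearly all of the sum in WT ADX was Car3, which slow muscle fibres also express. Adipoq, Plin1, Cidec and Retn averaged 1.51, 0.706, 0.800 and 0.843 FPKM over all libraries. The 8 fibre markers summed to 56970 to 68660 FPKM in WT ADX+DEX and 66740 to 72490 in WT ADX at ZT12, with 3 rises and 3 falls. Their part in the rise of ribosomal proteins was not tested. Leaving out single libraries kept the members called between 71 and 75 at ZT12 and between 63 and 67 at ZT0.

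Adrenaline after ADX was set against the same WT ADX libraries, so this comparison and the one with dexamethasone share their control libraries and are given side by side without a test between them. At ZT12, 66 of the 83 members rose and 1 fell in WT ADX+ADR, and of all genes 53% were called, 27.7% as rises and 25.3% as falls. At ZT0, 44 rose and 4 fell, Rps27rt among them, and of all genes 51.1% were called, 26.8% as rises and 24.3% as falls. The median log2 change of the members was 0.24 at ZT12 and 0.19 at ZT0, against 0.01 and 0.01 over all tested genes. The rises took in 36 of 42 large-subunit and 23 of 31 small-subunit proteins at ZT12, and 3 of 3 stalk proteins at both times.

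Rpl22l1 had the largest rise at ZT12. It had 8.31, 7.03, 8.81 and 8.26 FPKM in WT ADX+ADR, against 4.97, 4.19, 4.26 and 5.66 FPKM in WT ADX, a log2 change of 0.77 ± 0.15 (SE, adjusted p = 5.3e-05), and 0.44 at ZT0 (adjusted p = 0.023). Rpl36al, a close copy of Rpl36a, had 12.8, 11.3, 16.0 and 15.3 FPKM in WT ADX+ADR, against 10.3, 9.09, 10.0 and 8.21 FPKM in WT ADX at ZT12, a change of 0.55 ± 0.098 (SE, adjusted p = 1.6e-05). Rpl21 changed by 0.51 (adjusted p = 6.1e-07), though its level is uncertain because of its pseudogenes. At ZT0 the largest rise was that of Rps12, a small-subunit protein, with 91.1, 97.7, 111 and 82.3 FPKM in WT ADX+ADR, against 67.1, 67.3 and 59.9 FPKM in WT ADX, a change of 0.55 ± 0.10 (SE, adjusted p = 3.6e-05). Rpl36 changed by 0.45 (adjusted p = 0.0032). All treated libraries lay above the WT ADX libraries in each of these. The call of Rpl22l1 at ZT0 was lost without WT ADX replicate 3 or WT ADX+ADR replicate 2.

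Rpl27 and Rps27l fell at ZT0. Rpl27 had 11.4, 12.6, 9.27 and 11.0 FPKM in WT ADX+ADR, against 14.1, 14.0 and 13.2 FPKM in WT ADX, a change of -0.33 ± 0.071 (SE, adjusted p = 0.00024). Rps27l had 48.6, 48.4, 43.5 and 46.5 FPKM in WT ADX+ADR, against 56.7, 54.0 and 55.0 FPKM in WT ADX, a change of -0.24 ± 0.053 (SE, adjusted p = 0.00024). Neither gene overlapped with WT ADX. Stress and handling genes, a list of 10 immediate early and heat-shock genes, summed to 279 to 382 FPKM in WT ADX+ADR at ZT12, against 15.6 to 77.7 in WT ADX, with 6 of 10 past the test as rises. The 6 endothelial markers summed to 86.6 to 138 FPKM against 173 to 184 at ZT12, with 5 falls. The part of either in the rise of ribosomal proteins was not tested.

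**Figure D3:**
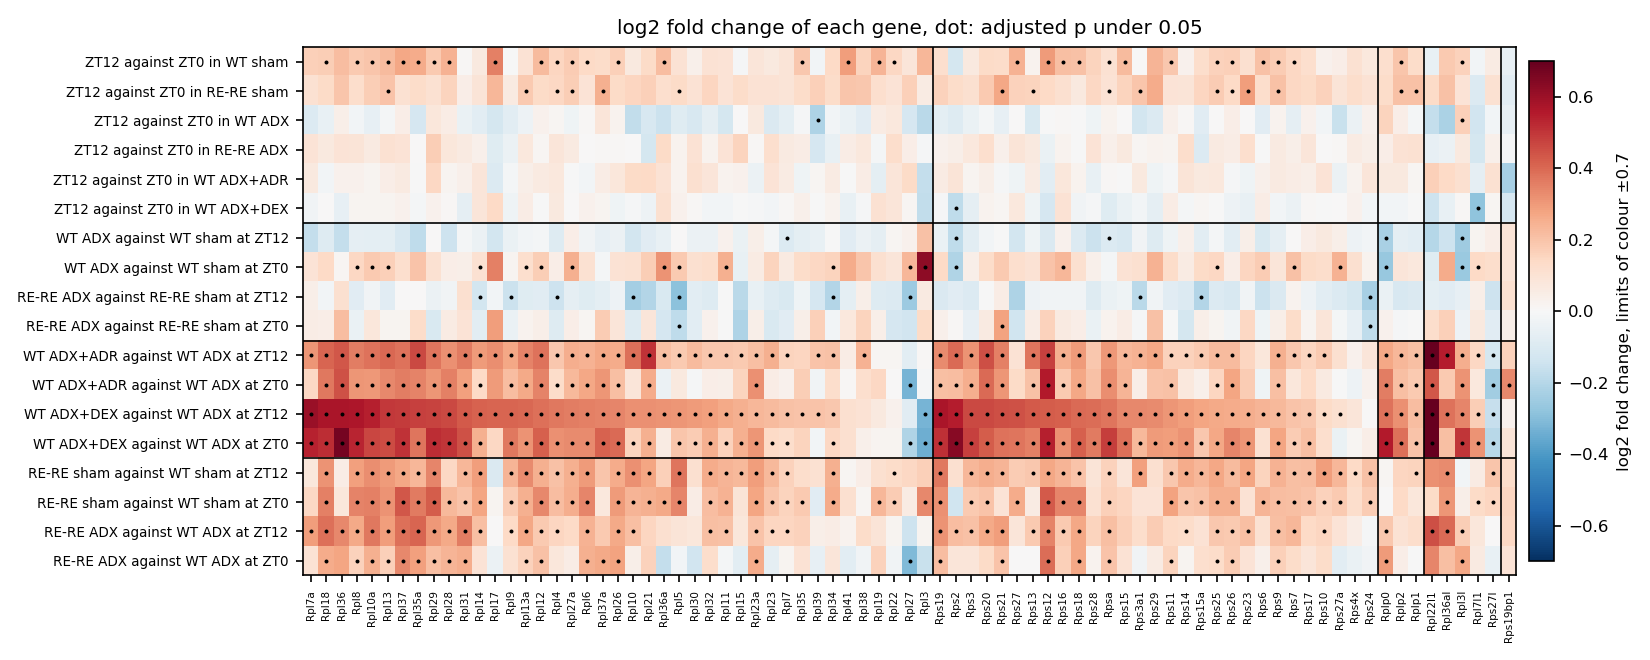
Log2 change of 79 members, without Rps27rt, in 18 comparisons, genes grouped by role, with colour limits at ±0.7 and a dot where the adjusted p is under 0.05. The rows of WT ADX+DEX and WT ADX+ADR against WT ADX and of RE-RE against WT hold most rises, 72 of 83 members in WT ADX+DEX at ZT12, and the falls are scattered over few members.

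ADX was compared with sham surgery to show what loss of the adrenals changed. In WT muscle Rpl3l and Rplp0 fell at both times, and a minority of members rose at ZT0. At ZT0, 20 of 83 members rose and 3 fell in WT ADX, and of all genes 32% were called, 12.6% as rises and 19.4% as falls. At ZT12 none rose and 6 fell, and of all genes 26.9% were called, 10.3% as rises and 16.6% as falls. The median log2 change was 0.12 over members and -0.02 over all genes at ZT0, and -0.05 and -0.02 at ZT12. The ZT0 rises were 13 large-subunit and 6 small-subunit proteins and the paralogue Rpl7l1.

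Rpl3 had the largest rise at ZT0. It had 8.20, 8.92 and 10.0 FPKM in WT ADX, against 5.21, 6.38, 6.31 and 5.56 FPKM in WT sham, a log2 change of 0.63 ± 0.098 (SE, adjusted p = 7.8e-06). Rpl11, which with Rpl5 and the 5S RNA forms a particle that can bind Mdm2, had 21.5, 21.9 and 21.2 FPKM in WT ADX, against 17.2, 19.8, 18.3 and 17.1 FPKM in WT sham, a change of 0.25 ± 0.058 (SE, adjusted p = 0.001). Rpl36a changed by 0.31 (adjusted p = 0.00098), with the limit of its pseudogenes. Neither Rpl3 nor Rpl11 overlapped between the groups. Rpl3l and Rplp0 fell at both times. Rpl3l had 279, 290.4, 263 and 263 FPKM in WT ADX, against 324, 333, 311 and 334 FPKM in WT sham at ZT12, a change of -0.25 ± 0.053 (SE, adjusted p = 0.00052), and a change of -0.26 (adjusted p = 0.00058) at ZT0. Rplp0 had 166, 164, 162 and 149 FPKM in WT ADX, against 186, 195, 176 and 192 FPKM in WT sham at ZT12, a change of -0.23 ± 0.053 (SE, adjusted p = 0.0015), and -0.26 (adjusted p = 0.00053) at ZT0. For both genes all WT ADX libraries lay below all WT sham libraries at either time. Rpl7 fell by 0.10 at ZT12 (adjusted p = 0.032). This call was lost without the libraries that stand apart and with age as a covariate. It was also lost without any of WT sham replicates 5, 6, 7 and 8 and WT ADX replicates 6 and 7.

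The 77 mitochondrial ribosomal proteins, which build the separate ribosome of that organelle, had 0 rises and 43 falls at ZT0 in WT ADX, with a median log2 change of -0.17, and 0 rises and 28 falls at ZT12, with a median of -0.13. Endothelial markers moved with ADX, summing to 176 to 201 FPKM in WT ADX at ZT0 against 132 to 138 in WT sham, with 5 of 6 rises, and to 173 to 184 against 111 to 121 at ZT12, with 6 of 6. The 5 adipocyte markers summed to 1995 to 2616 FPKM in WT ADX against 919 to 1278 in WT sham at ZT0 and to 1885 to 2233 against 1089 to 1617 at ZT12, without overlap. No marker of these 5 passed the test, and nearly all of the sum was Car3, which slow muscle fibres also express, while Adipoq stayed under 4 FPKM. The part of these markers in the changes was not tested. At ZT0, 14 members were called without the libraries that stand apart, 14 without WT sham replicate 1 or WT ADX replicate 1, and 36 without WT sham replicate 2. At ZT12, 3 were called without the libraries that stand apart and without any of WT sham replicate 8 and WT ADX replicates 6 and 7.

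In RE-RE mice a set of members fell with ADX at ZT12, with Rpl5 foremost. At ZT12, 11 of 83 fell and none rose in RE-RE ADX against RE-RE sham, Rps27rt among the falls, and of all genes 5.32% were called, 1.77% as rises and 3.55% as falls. At ZT0, 1 rose and 2 fell, and of all genes 5.45% were called, 1.56% as rises and 3.89% as falls. Rpl5, the partner of Rpl11 in the 5S particle, had 19.9, 19.8, 19.9 and 19.6 FPKM in RE-RE ADX, against 25.1, 24.4, 22.6 and 24.7 FPKM in RE-RE sham at ZT12, a log2 change of -0.29 ± 0.045 (SE, adjusted p = 0.00025), and a change of -0.18 (adjusted p = 0.016) at ZT0. Rpl10, which joins the large subunit late in its assembly, had 28.4, 29.2, 26.5 and 26.9 FPKM in RE-RE ADX, against 31.3, 33.1, 32.8 and 33.5 FPKM in RE-RE sham at ZT12, a change of -0.24 ± 0.055 (SE, adjusted p = 0.0093). Rpl27 changed by -0.25 (adjusted p = 0.019) at ZT12. The groups did not overlap for these 3 genes at ZT12. At ZT0, Rps21 changed by 0.28 (adjusted p = 0.015) and Rps24 by -0.18 (adjusted p = 0.037). Without the libraries that stand apart 1 member, Rpl5, was called at ZT12 and none at ZT0, where 0 were called without RE-RE sham replicate 1, 1 without replicate 4 and 5 without replicate 3. At ZT12 leaving out RE-RE sham replicate 5 gave 7 and replicate 6 gave 6, and leaving out RE-RE ADX replicate 5, 6 or 7 gave 6, 6 and 5. The 6 fibroblast markers summed to 414 to 566 FPKM in RE-RE ADX at ZT12, against 329 to 394 in RE-RE sham, without overlap and with 0 of 6 past the test by limma. Adipocyte markers summed to 1197 to 2180.0 FPKM against 1227 to 1840.0, with 1 of 5 past the test, a rise, and none of the endothelial, fibre or stress genes passed it. Their part in the falls was not tested.

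The ADX effect itself was tested for a difference between RE-RE and WT over both times. It was lower in RE-RE for 16 members and higher for 2, and of all genes 22.5% were called, 13.8% as rises and 8.63% as falls, against 21.7% of the members in either direction. The median difference was -0.07 on the log2 scale over members and -0.0001 over all genes. Rpl5 had the lowest p, at -0.33 ± 0.046 (SE, adjusted p = 2.9e-06), with ADX effects of -0.29 and -0.18 in RE-RE at ZT12 and ZT0 and of 0.00 and 0.18 in WT. Rpl27 differed by -0.33 (adjusted p = 0.00051) and Rpl3 by -0.32 (adjusted p = 0.011). Rplp0 and Rpl3l, which fell with ADX in WT, had differences of 0.23 (adjusted p = 0.0016) and 0.21 (adjusted p = 0.0045). Their ADX changes in RE-RE were -0.05 and 0.03 for Rplp0 and -0.06 and -0.03 for Rpl3l. Rps27rt was among the 16. Without the libraries that stand apart, 8 members differed, and neither Rpl3 nor Rpl22 was among them.

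RE-RE mice were compared with WT mice to show what a clock restricted to brain and muscle leaves different in muscle. With adrenals intact the members were higher in RE-RE at both times. At ZT12, 55 of 83 rose and none fell, and of all genes 19.3% were called, 9.22% as rises and 10.1% as falls. At ZT0, 57 rose and none fell, and of all genes 24.1% were called, 12.5% as rises and 11.6% as falls. The median log2 change was 0.22 at ZT12 and 0.20 at ZT0 over members, against -0.01 and -0.01 over all genes. All RE-RE sham values lay above all WT sham values in 50 members at ZT12 (10.7% of all genes) and in 49 at ZT0 (10.3%).

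Rpl5 led at ZT12. It had 25.1, 24.4, 22.6 and 24.7 FPKM in RE-RE sham, against 19.2, 17.5, 18.6 and 19.2 FPKM in WT sham, a log2 change of 0.38 ± 0.045 (SE, adjusted p = 8e-08). Rps19 had 7.16, 6.49, 7.16 and 7.12 FPKM in RE-RE sham, against 5.48, 5.68, 4.74 and 5.78 FPKM in WT sham at ZT12, a change of 0.37 ± 0.061 (SE, adjusted p = 3.3e-05). Rpl29, a large-subunit protein that also binds heparin, changed by 0.34 (adjusted p = 0.00031) at ZT12 and 0.42 (adjusted p = 1.8e-05) at ZT0. At ZT0 the largest rises were those of Rpl37 and Rps12. Rpl37 had 51.4, 55.3, 50.0 and 49.4 FPKM in RE-RE sham, against 32.9, 44.1, 38.6 and 37.8 FPKM in WT sham, a change of 0.43 ± 0.075 (SE, adjusted p = 6.8e-05), and Rps12 changed by 0.43 (adjusted p = 0.0012). None of these groups overlapped. The 77 mitochondrial ribosomal proteins had 12 rises and 4 falls at ZT12 and 13 rises and 2 falls at ZT0.

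After ADX, most of the members rose in RE-RE against WT at ZT12, and a minority at ZT0. At ZT12, 47 of 83 rose and Rps27rt fell, and of all genes 38% were called, 19.7% as rises and 18.3% as falls. At ZT0, 27 rose and 2 fell, and of all genes 39% were called, 20.7% as rises and 18.2% as falls, against 34.9% of the members. The median log2 change was 0.18 at ZT12 and 0.10 at ZT0, against -0.004 and -0.0028 over all genes. Rpl35a, another gene of Diamond-Blackfan anaemia in humans, had 6.74, 7.17, 6.41 and 7.94 FPKM in RE-RE ADX, against 5.66, 5.04, 5.65 and 4.93 FPKM in WT ADX at ZT12, a change of 0.41 ± 0.085 (SE, adjusted p = 0.00027). Rpl22l1 changed by 0.45 (adjusted p = 0.015) with overlapping groups, a call lost without WT ADX replicate 5 or 6 or RE-RE ADX replicate 8. Rpl36al changed by 0.40 (adjusted p = 0.0016) and Rpl37 by 0.39 (adjusted p = 0.00013) at ZT12. At ZT0, Rps12 had 84.4, 76.6, 97.3 and 82.7 FPKM in RE-RE ADX, against 67.1, 67.3 and 59.9 FPKM in WT ADX, a change of 0.39 ± 0.10 (SE, adjusted p = 0.0029), and Rplp0 changed by 0.30 (adjusted p = 9.7e-05). Rpl27 fell by 0.31 at ZT0 (adjusted p = 0.00079).

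Other markers differed between the genotypes as well. The 6 fibroblast markers summed to 329 to 394 FPKM in RE-RE sham at ZT12, against 167 to 241 in WT sham, with 4 rises. No fibroblast marker was listed at 0 in every library. Over the whole series Col1a1 was listed at 0 in 11 libraries and Col3a1 in 8, so their log2 changes are uncertain. Stress and handling genes summed to 58.1 to 77.0 FPKM in RE-RE sham and 16.4 to 24.4 in WT sham at ZT12, with 7 of 10 past the test as rises. After ADX at ZT12, the fibroblast markers summed to 414 to 566 FPKM in RE-RE against 116 to 216 in WT, with 5 of 6 as rises. The 6 endothelial markers summed to 98.8 to 137 FPKM in RE-RE ADX against 173 to 184 in WT ADX at ZT12, and to 124 to 132 against 176 to 201 at ZT0, with 6 of 6 as falls at both times. Neither list overlapped between the genotypes after ADX at ZT12. The part of these markers in the ribosomal protein difference was not tested.

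Time of day was read by setting ZT12 against ZT0 within each condition. In both sham conditions members were higher at ZT12 and none fell. In WT sham 36 of 83 rose, and of all genes 23.5% were called, 14% as rises and 9.5% as falls. In RE-RE sham 18 rose, and of all genes 10.8% were called, 5.73% as rises and 5.03% as falls. The median log2 change was 0.14 in WT sham, with 75 of 83 members positive, and 0.13 in RE-RE sham, with 80 of 83 positive, against 0.01 and 0.01 over all genes. The 2 comparisons share no libraries. They had 10 members in common, among them Rpl4, Rpl13, Rpl27a, Rplp2, Rps9, Rps25, Rps26 and Rpsa. These 10 were 27.8% of the WT list, while 21.7% of all members were called in RE-RE sham. They were 55.6% of the RE-RE list, while 43.4% of all members were called in WT sham. The size of the overlap was not tested.

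Rpl13, a large-subunit protein, had 26.9, 26.2, 28.5 and 28.4 FPKM in WT sham at ZT12, against 23.5, 24.9, 23.3 and 22.8 FPKM in WT sham at ZT0, a log2 change of 0.22 ± 0.052 (SE, adjusted p = 0.0021). Its change in RE-RE sham was 0.20 (adjusted p = 0.0086). Rps27 had 39.1, 44.4, 39.3 and 39.8 FPKM in WT sham at ZT12, against 31.6, 37.2, 34.2 and 34.1 FPKM in WT sham at ZT0, a change of 0.25 ± 0.071 (SE, adjusted p = 0.01). Rpl12, at the base of the stalk, changed by 0.22 (adjusted p = 0.0014) in WT sham. The values at ZT12 lay above those at ZT0 in each of these 3. In RE-RE sham, Rps23, which lies in the decoding centre, had 34.1, 33.0, 36.0 and 33.4 FPKM in RE-RE sham at ZT12, against 25.8, 28.3, 29.3 and 28.2 FPKM in RE-RE sham at ZT0, a change of 0.29 ± 0.075 (SE, adjusted p = 0.008). Rps21 changed by 0.27 (adjusted p = 0.0087) and Rpl37a by 0.25 (adjusted p = 0.03), with no overlap between the times. All ZT12 values lay above all ZT0 values in 17 members in WT sham (13.7% of all genes) and in 25 in RE-RE sham (6.61%). Without the libraries that stand apart the calls of Rpl12, Rpl13 and Rps27 in WT sham and of Rps21 and Rpl37a in RE-RE sham were lost, and that of Rps23 was not.

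The WT sham count rested on single libraries. It was 21 without ZT0 replicate 1, 22 without ZT0 replicate 4, 15 without ZT12 replicate 6, 23 without ZT12 replicate 8, and 4 without both libraries that stand apart. In RE-RE sham 7 were called without the libraries that stand apart and 12 to 17 without any single library. Stress and handling genes summed to 16.4 to 24.4 FPKM in WT sham at ZT12 and 22.4 to 88.0 at ZT0, and fibre markers to 72100 to 82130 and 58780 to 66320. Their part in the time effect was not tested.

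Few or no members differed by time in the adrenalectomized conditions. In RE-RE ADX none did by limma, 11 having an unadjusted p under 0.05, with a median log2 change of 0.05, and of all genes 0.775% were called, 0.592% as rises and 0.183% as falls. There 67 of 83 members were positive (80.7%, against 52.9% of all genes), and all ZT12 values lay above all ZT0 values in 11 (6.27% of all genes). In WT ADX+DEX none rose and 2 fell, with a median of -0.0017, and of all genes 27.8% were called, 14.7% as rises and 13.2% as falls. The falls were Rps2, at -0.18 (adjusted p = 0.042), and Rpl7l1, a relative of Rpl7 found in human precursors of the large subunit, with 12.8, 13.6, 13.8 and 14.5 FPKM in WT ADX+DEX at ZT12, against 16.5, 16.6, 16.1 and 17.1 FPKM in WT ADX+DEX at ZT0, a change of -0.28 ± 0.047 (SE, adjusted p = 1.2e-05). In WT ADX+ADR none did by limma, 6 having an unadjusted p under 0.05, with a median of 0.04 and 60 of 83 members positive (72.3%, against 54.8% of all genes), and of all genes 12.7% were called, 6.28% as rises and 6.45% as falls. In WT ADX 1 rose and 1 fell, with a median of -0.03, and of all genes 11% were called, 7.64% as rises and 3.38% as falls. The rise was that of Rpl3l, at 0.17 (adjusted p = 0.048), and the fall that of Rpl39, which lines the exit tunnel, at -0.21 (adjusted p = 0.038). Without the libraries that stand apart, which lie in other groups, no member was called in WT ADX and 1 in WT ADX+DEX. Single libraries also set these small counts. In WT ADX 1 was called without ZT0 replicate 2 or 3 and none without ZT12 replicate 4 or 5, in WT ADX+DEX 1 without replicate 1, 6 or 7, and in WT ADX+ADR 1 without replicate 2.

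A call in one condition and none in another does not show a difference, so the time effects themselves were compared. Set against WT sham, the time effect of WT ADX was lower for 2 members, Rpl36a at -0.37 (adjusted p = 0.042) among them, and higher for none. Of all genes 1.54% were called, 0.667% as rises and 0.875% as falls. The median difference was -0.16 over members, of which 6 were positive, and 0.01 over all genes. An unadjusted p under 0.05 by limma was found in 40 of the 83 members. The same count was 9 for WT ADX+DEX against WT ADX and 12 for WT ADX+ADR against WT ADX, both given below. The matching shares of all genes are not given. No member was called without the libraries that stand apart, nor without any of WT sham replicates 1, 3, 5 and 8 and WT ADX replicates 4 and 7. Without WT sham replicate 4 or 7 or WT ADX replicate 1 or 2 the call of Rpl36a was lost and 1 other member was called. For WT ADX+DEX against WT ADX 1 member was higher, Rpl14 at 0.16 (adjusted p = 0.037), with a median of 0.04, and of all genes 17.2% were called, 7.75% as rises and 9.48% as falls. The call of Rpl14 was lost without the libraries that stand apart, and without any of WT ADX replicates 1, 3, 4 and 7 and WT ADX+DEX replicates 2, 4, 7 and 8. In place of it, 2 members were lower without WT ADX replicate 1, 1 other was higher without WT ADX replicate 3 and 1 was lower without WT ADX+DEX replicate 8. Without WT ADX replicate 6 or WT ADX+DEX replicate 1 or 5, 2 members were higher, Rpl14 among them. For WT ADX+ADR 1 was higher, Rpl10 at 0.30 (adjusted p = 0.023), with a median of 0.07, and of all genes 4.62% were called, 2% as rises and 2.62% as falls. No member was called there without WT ADX replicate 1 or 3 or WT ADX+ADR replicate 7, and 2 were without WT ADX+ADR replicate 6.

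Paralogue pairs are set side by side in FPKM, which is per exon length. All annotated exons together span 3175 bases in Rpl3 and 1643 in Rpl3l, 2911 in Rpl22 and 1989 in Rpl22l1, and 1043 in Rps27 and 816 in Rps27l. The size of a ratio therefore depends on the lengths used, while its change between groups does not. Rpl3l exceeded Rpl3 in every group. The ratio of Rpl3l to Rpl3 was 55.3 ± 8.09 in WT ADX+DEX at ZT12 and 48.7 ± 6.21 at ZT0 (SD, n = 4 each), and 34.6 ± 1.94 and 27.2 ± 4.89 in WT ADX at the same times. WT sham had 47.6 ± 3.91 and 50.0 ± 4.06. RE-RE ADX had 38.7 ± 5.72 and 36.4 ± 3.36, and RE-RE sham 41.9 ± 4.58 and 41.3 ± 8.87. Rpl3 and Rpl3l moved in opposite directions with ADX at ZT0 and with dexamethasone at both times. At ZT0 both comparisons use the same WT ADX libraries, so they are not independent observations. The ratio of Rps27l to Rps27 was 0.962 ± 0.0400 in WT ADX+DEX and 1.47 ± 0.0653 in WT ADX at ZT12. The ratio of Rpl22l1 to Rpl22 was 0.328 ± 0.0426 in WT ADX+DEX, 0.275 ± 0.0190 in WT ADX+ADR and 0.164 ± 0.0276 in WT ADX at ZT12. Rps27rt, a retrocopy of Rps27 and so uncertain in level, was listed at 0 in 6 libraries and reached 2.61 FPKM at most. In RE-RE ADX at ZT12 it read 0, 0, 0 and 0.130 FPKM, against 1.73, 1.61, 0.484 and 2.39 in RE-RE sham.

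**Figure D4:**
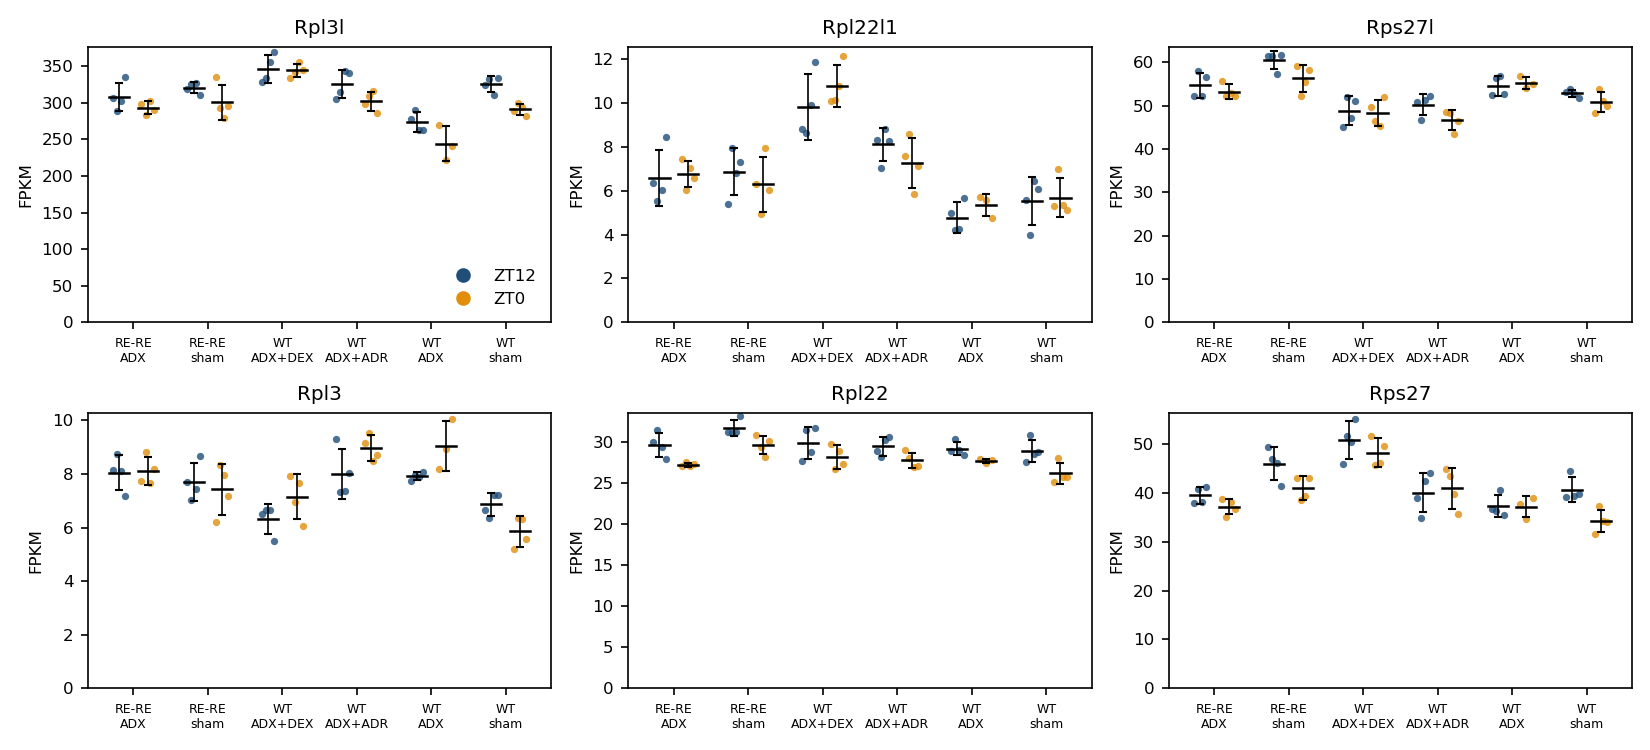
FPKM of paralogue pairs in each library (points) with the mean ± SD of each group (bars), ZT12 left of ZT0 in each condition. Rpl22l1 is highest in WT ADX+DEX, at 8.63 to 12.1 FPKM, while Rpl22 shows no such step, and Rpl3 is highest in WT ADX at ZT0, at 8.20 to 10.0 FPKM.

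Several members serve as reference genes in PCR, and each differed between groups. Rpl13a had 48.4, 52.0, 50.5 and 54.9 FPKM in WT ADX+DEX, against 39.0, 39.3, 38.8 and 38.5 FPKM in WT ADX at ZT12, a log2 change of 0.40 ± 0.038 (SE, adjusted p = 1.2e-11), and was called as a rise in 10 of 18 comparisons. Rps18 had 24.1, 25.9, 24.6 and 25.8 FPKM in RE-RE sham, against 18.3, 20.3, 21.1 and 19.6 FPKM in WT sham at ZT0, a change of 0.34 ± 0.050 (SE, adjusted p = 5.1e-06). Rplp0, whose stalk recruits elongation factors, had 209, 204, 201 and 231 FPKM in WT ADX+DEX, against 159, 139 and 134 FPKM in WT ADX at ZT0, a change of 0.55 ± 0.057 (SE, adjusted p = 8e-11). None of these pairs of groups overlapped. The other stalk proteins changed less at ZT0, Rplp1 by 0.20 (adjusted p = 0.0021) and Rplp2 by 0.39 (adjusted p = 3.7e-06). The ratio of Rplp0 to Rplp1 was 0.433 ± 0.0236 in WT ADX at ZT0 and 0.547 ± 0.0217 in WT sham. Rps6, the substrate of S6 kinase, rose by 0.24 with dexamethasone at ZT12 (adjusted p = 0.00051), and changed by 0.11 (adjusted p = 0.12) at ZT0. Over the 18 comparisons between 2 groups, Rpl13 and Rps25 were called most often as rises, in 11 each, and Rpl27, Rps27l and Rps27rt most often as falls, in 4 each. Rpl38, Rpl41, Rps4x and Rps19bp1 were called once each, as rises.

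The same 18 comparisons show how far single members moved. Many of these comparisons share a group, so the calls counted over them are not independent. Rpl11 was called 7 times as a rise and 0 times as a fall, its log2 change running from -0.12 in ZT12 against ZT0 in WT ADX to 0.27 in WT ADX+DEX against WT ADX at ZT12. Rpl5 was called 7 times as a rise and 2 times as a fall, from -0.29 in RE-RE ADX against RE-RE sham at ZT12 to 0.38 in RE-RE sham against WT sham at ZT12. These are the partners of the 5S particle, and Rpl5 covered the wider range. Rps18 was called 9 times as a rise and 0 times as a fall, from -0.09 in ADX against sham in WT at ZT12 to 0.42 in WT ADX+DEX against WT ADX at ZT0, and Rpl13a 10 times as a rise and 0 times as a fall, from -0.08 in RE-RE ADX against RE-RE sham at ZT12 to 0.40 in WT ADX+DEX against WT ADX at ZT12. Rplp0 was called 6 times as a rise and 2 times as a fall, from -0.26 in ADX against sham in WT at ZT0 to 0.55 in WT ADX+DEX against WT ADX at ZT0. Of these PCR references, Rplp0 alone was called in both directions. Each of these Rplp0 calls was in a comparison with WT ADX. They were rises with WT ADX as the reference and falls with WT ADX set against WT sham. Rpl3 was called 2 times as a rise and 2 times as a fall, from -0.34 in WT ADX+DEX against WT ADX at ZT0 to 0.63 in ADX against sham in WT at ZT0, and Rpl3l 8 times as a rise and 2 times as a fall, from -0.26 in ADX against sham in WT at ZT0 to 0.50 in WT ADX+DEX against WT ADX at ZT0. Rpl22 was called 3 times as a rise and 0 times as a fall, from -0.12 in RE-RE ADX against RE-RE sham at ZT0 to 0.18 in RE-RE sham against WT sham at ZT0, and Rpl22l1 5 times as a rise and 0 times as a fall, from -0.20 in ADX against sham in WT at ZT12 to 1.04 in WT ADX+DEX against WT ADX at ZT12. Rpl22 thus covered a narrow range beside its paralogue. Rps27 was called 4 times as a rise and 0 times as a fall, from -0.22 in RE-RE ADX against RE-RE sham at ZT12 to 0.45 in WT ADX+DEX against WT ADX at ZT12, and Rps27l 2 times as a rise and 4 times as a fall, from -0.24 in WT ADX+ADR against WT ADX at ZT0 to 0.19 in RE-RE sham against WT sham at ZT12. Rps6 was called 4 times as a rise and 0 times as a fall, from -0.15 in RE-RE ADX against RE-RE sham at ZT12 to 0.24 in RE-RE sham against WT sham at ZT0. Rpl36al was called 5 times as a rise and 0 times as a fall, from -0.22 in ZT12 against ZT0 in WT ADX to 0.55 in WT ADX+ADR against WT ADX at ZT12. Rpl7l1 rose in 5 comparisons and fell in 1, from -0.28 in ZT12 against ZT0 in WT ADX+DEX to 0.31 in WT ADX+DEX against WT ADX at ZT0.

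Genes around the ribosome were counted by lists. Of 41 ribosome biogenesis genes, which make and process ribosomal RNA, 23 rose and 5 fell in WT ADX+DEX against WT ADX at ZT12, with a median log2 change of 0.18. Polr1a, the largest subunit of RNA polymerase I, had 11.6, 11.3, 11.4 and 12.8 FPKM in WT ADX+DEX, against 8.43, 9.49, 8.06 and 8.42 FPKM in WT ADX, a change of 0.46 ± 0.056 (SE, adjusted p = 6.7e-09). Of 18 genes listed for messenger RNAs with a TOP motif, 12 rose and 4 fell with dexamethasone at ZT12. This list holds translation factors and also Tpt1, Naca, Btf3, Hnrnpa1, Vim and Nap1l1. In WT sham at ZT12 against ZT0, 11 of these 18 rose and none fell, and 9 of 41 biogenesis genes rose and 1 fell. In WT ADX against WT sham at ZT12, 2 of the 18 rose and 10 fell. Of 22 genes linking mTORC1 to the ribosome, 14 rose and 2 fell with dexamethasone at ZT12. Of all genes, 34.6% were called as rises and 31.7% as falls in that comparison. The 22 include parts of mTORC1, such as Mtor and Rptor, and its brakes, such as Tsc1, Tsc2, Deptor and Ddit4. Their count therefore gives no direction of mTORC1 activity, which was not tested. The mitochondrial ribosomal proteins had 38 rises and 6 falls in WT ADX+DEX at ZT12, 42 rises and 3 falls in WT ADX+ADR, and 30 rises and 1 fall in RE-RE ADX, each against WT ADX. The median changes of the cytosolic set and of the mitochondrial set had opposite signs for WT ADX against WT sham when mice were killed at ZT0, at 0.12 and -0.17, and the difference between the sets was not tested.

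**Figure D5:**
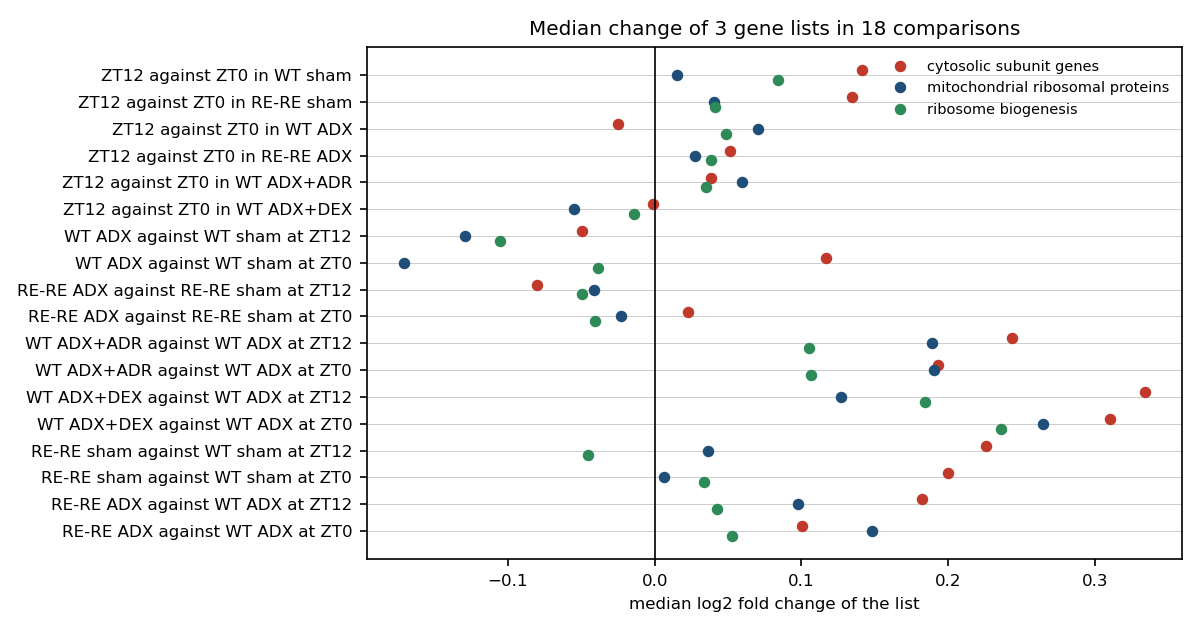
Median log2 change (x axis) of the 76 cytosolic subunit genes, the 77 mitochondrial ribosomal proteins and the 41 ribosome biogenesis genes in 18 comparisons between groups (rows). The cytosolic set stands at 0.33 in WT ADX+DEX against WT ADX at ZT12 and at 0.12 in the ZT0 row of WT ADX against WT sham, where the mitochondrial set stands at -0.17.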

How the data were processed

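RNA-seq of tibialis anterior muscle was deposited as 1 table of log2 FPKM values, 13500 genes by 47 libraries, made by the authors from 60 bp single-end reads per the labels. The submitters' processing notes name GRCm38, HISAT2 2.1.0, featureCounts 1.6.2, FastQC 0.11.8, Trim Galore 0.5.0 and edgeR 3.30.0, and the strand setting is not given in the sources used here. The deposited log2 values ran from -6.64 to 14.7 and were returned to FPKM less an offset of 0.01, which was taken from the lowest value, so a gene at that value is listed at 0. Gene symbols came from GENCODE M21 for 13441 IDs, and 59 had none.

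Genes with at least 1 FPKM in at least 3 libraries (12000) were fitted with limma 3.58.1 in R 4.3.3 on log2(FPKM + 0.01), with 1 mean per group, 35 residual degrees of freedom and an empirical Bayes trend. Fold changes are on this scale, which understates those of low genes and, at a value of 0, depends on the offset. The 22 contrasts and the F-test over groups were adjusted by the Benjamini-Hochberg method over all genes tested, and called at 0.05. All adjusted p-values are two-sided and from this fit. The fit was tested on simulated data in which each library was drawn independently. Such data cannot show how shared processing within a group would change the p-values. No counts are in the table, so read depth per library was not used. Each sample is labelled as its own, but nothing names litters or batches, so p-values measure the spread between these libraries. Sums, ratios and figures used Python 3.11.15, numpy 2.4.6, pandas 2.3.3 and matplotlib 3.10.9.

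Members named per comparison were the 3 largest rises and falls among called members without overlap and without a value at 0, plus 14 members fixed for every comparison. A few genes are not reported here by name, though the counts and sums include them. Members and gene lists were chosen with earlier results of these data known. Alternatives were log2(FPKM + 1), no filter, equal medians, removal of a length trend, age as a covariate, only the groups compared, a replicate block, leaving out the 7 libraries that stand apart, and leaving out each library in turn.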

Additional observations from a re-analysis of the deposited data

Results flagged for a closer look

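Among 165 tests of the 14 fixed members and the members' summed FPKM in groups of 4, 10 found a library far from the other 3 of its group by Dixon's test, and chance gives about 1 in 20. Rpl3 in WT ADX+DEX at ZT12 replicate 8 had 5.49 FPKM, against 6.52 to 6.66 FPKM in the other libraries of its group. Rpl22 in RE-RE sham at ZT12 replicate 8 had 33.1 FPKM, against 31.1 to 31.2 FPKM in the other libraries of its group. Rpl22l1 in WT sham at ZT0 replicate 2 had 7.003 FPKM, against 5.10 to 5.35 FPKM in the other libraries of its group, and Rplp0 in the same library 182 FPKM, against 168 to 171 FPKM in the other libraries of its group. Rps27 in WT sham at ZT12 replicate 6 had 44.4 FPKM, against 39.1 to 39.8 FPKM in the other libraries of its group. Rps27l in RE-RE sham at ZT12 replicate 7 had 57.3 FPKM, against 61.4 to 61.8 FPKM in the other libraries of its group. Rplp0 in RE-RE ADX at ZT12 replicate 8 had 191 FPKM, against 179 to 180.4 FPKM in the other libraries of its group. Rps18 in WT ADX at ZT12 replicate 5 had 23.8 FPKM, against 20.3 to 20.9 FPKM in the other libraries of its group. Rps6 had 19.0 FPKM, against 19.8 to 19.9 FPKM in the other libraries of its group, in RE-RE sham at ZT0 replicate 3, and 22.3 FPKM, against 20.9 to 21.2 FPKM in the other libraries of its group, in RE-RE sham at ZT12 replicate 5.

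Some effects differed between conditions by an interaction term, in shares of the members that are read against those of all genes. The time effect differed between WT ADX and WT sham in 2 members (2.41%, against 1.54% of all genes), with Rpl36a at -0.37 ± 0.097 (SE, log2 scale). It differed between WT ADX+DEX and WT ADX in 1 member (1.2%, against 17.2%), Rpl14 at 0.16 ± 0.055, and between WT ADX+ADR and WT ADX in 1 (1.2%, against 4.62%), Rpl10 at 0.30 ± 0.081. The ADX effect differed between RE-RE and WT in 18 members, 21.7% of them against 22.5% of all genes, a share near that of all genes. Among those named, it was higher in RE-RE for Rplp0, by 0.23, and Rpl3l, by 0.21. It was lower in RE-RE for Rpl27, at -0.33, Rpl5, at -0.33, Rpl3, at -0.32, Rpl22, at -0.16, and Rps27l, at -0.20, all by limma with Benjamini-Hochberg adjustment (adjusted p of 2.9e-06 for Rpl5 and 0.0089 for Rpl22). The calls of Rpl3 and Rpl22 were lost without the libraries that stand apart.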

How the results depend on the processing

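Counts of members called that are not listed here stayed within 1.5 times of those reported, and no named change turned its direction. With age as a covariate the counts were 1 instead of 2 for ZT12 against ZT0 in WT ADX, 1 instead of 2 for ZT12 against ZT0 in WT ADX+DEX, 3 instead of 6 for ADX in WT mice at ZT12 and 7 instead of 11 for RE-RE ADX against RE-RE sham at ZT12. With medians set equal they were 1 instead of 2 for ZT12 against ZT0 in WT ADX, 14 instead of 23 for ADX in WT mice at ZT0 and 0 instead of 2 for time effect in WT ADX minus time effect in WT sham. With the length trend removed they were 6 instead of 2 for ZT12 against ZT0 in WT ADX, 9 instead of 18 for ZT12 against ZT0 in RE-RE sham and 4 instead of 1 for time effect in WT ADX+DEX minus time effect in WT ADX. With log2(FPKM + 1), and with no filter, the count was 1 instead of 2 for ZT12 against ZT0 in WT ADX. Fitted on only the groups compared, which leaves fewer samples, they were 12 instead of 36 for ZT12 against ZT0 in WT sham, 0 instead of 2 for ZT12 against ZT0 in WT ADX, 1 instead of 2 for ZT12 against ZT0 in WT ADX+DEX, 7 instead of 18 for ZT12 against ZT0 in RE-RE sham, 9 instead of 23 for ADX in WT mice at ZT0, 0 instead of 3 for RE-RE ADX against RE-RE sham at ZT0, 4 instead of 11 for RE-RE ADX against RE-RE sham at ZT12, 0 instead of 2 for time effect in WT ADX minus time effect in WT sham, 0 instead of 1 for time effect in WT ADX+DEX minus time effect in WT ADX and 0 instead of 1 for time effect in WT ADX+ADR minus time effect in WT ADX. Without the libraries that stand apart they were 4 instead of 36 for ZT12 against ZT0 in WT sham, 0 instead of 2 for ZT12 against ZT0 in WT ADX, 1 instead of 2 for ZT12 against ZT0 in WT ADX+DEX, 7 instead of 18 for ZT12 against ZT0 in RE-RE sham, 14 instead of 23 for ADX in WT mice at ZT0, 3 instead of 6 for ADX in WT mice at ZT12, 0 instead of 3 for RE-RE ADX against RE-RE sham at ZT0, 1 instead of 11 for RE-RE ADX against RE-RE sham at ZT12, 0 instead of 2 for time effect in WT ADX minus time effect in WT sham, 0 instead of 1 for time effect in WT ADX+DEX minus time effect in WT ADX and 8 instead of 18 for ADX effect in RE-RE minus ADX effect in WT. Samples with the same replicate number had deviations correlated at -0.098 to 0.219. The correlation was over 0.1 in 2 of 3 pairs for ADX in WT mice at ZT0 and in 1 of 3 for RE-RE ADX against WT ADX at ZT12. It was over 0.1 in none of the other comparisons. With 3 or 4 pairs per comparison, these values cannot decide whether the numbers pair samples. A fit with the replicate number as a block gave 0 instead of 23 for ADX in WT mice at ZT0, 0 instead of 6 for ADX in WT mice at ZT12, 0 instead of 3 for RE-RE ADX against RE-RE sham at ZT0, 0 instead of 11 for RE-RE ADX against RE-RE sham at ZT12, 24 instead of 48 for WT ADX+ADR against WT ADX at ZT0, 14 instead of 67 for WT ADX+ADR against WT ADX at ZT12, 23 instead of 57 for RE-RE sham against WT sham at ZT0, 28 instead of 55 for RE-RE sham against WT sham at ZT12, 3 instead of 29 for RE-RE ADX against WT ADX at ZT0 and 27 instead of 48 for RE-RE ADX against WT ADX at ZT12. Leaving out single libraries gave 15 to 49 for ZT12 against ZT0 in WT sham, 14 to 36 for ADX in WT mice at ZT0, 0 to 3 for time effect in WT ADX minus time effect in WT sham, 3 to 9 for ADX in WT mice at ZT12, 0 to 3 for ZT12 against ZT0 in WT ADX, 0 to 2 for time effect in WT ADX+DEX minus time effect in WT ADX, 0 to 2 for time effect in WT ADX+ADR minus time effect in WT ADX, 0 to 1 for ZT12 against ZT0 in WT ADX+ADR, 1 to 3 for ZT12 against ZT0 in WT ADX+DEX, 0 to 5 for RE-RE ADX against RE-RE sham at ZT0 and 5 to 15 for RE-RE ADX against RE-RE sham at ZT12. For the other comparisons no library moved the count by over 1.5 times. Of 134 single calls named or fixed, 95 were kept in every alternative other than the block and 39 were lost in some, 31 of them without the libraries that stand apart, and the cause was not tested. With 3 or 4 libraries per group and no counts in the table, the number of libraries limits the precision.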

Other observations

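Other lists around the ribosome moved in WT ADX+DEX against WT ADX at ZT12. Of 9 ribosome chaperone and rescue genes, 5 rose and 2 fell, with a median log2 change of 0.14. Of 11 genes of eIF2 and the integrated stress response, 5 rose and 2 fell, with a median of 0.33. Of 37 ribosomal protein pseudogenes tested, 9 rose and 6 fell, with a median of 0.15, beside 72 rises and 2 falls among the 83 members. In RE-RE sham against WT sham at ZT12, 8 pseudogenes rose and 1 fell, with a median of 0.22.

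Markers of further cell types were measured in the same comparisons. In WT ADX+DEX against WT ADX at ZT12, 5 of 5 erythroid markers fell, 4 of 7 macrophage markers fell and 1 rose, 2 of 3 Schwann cell markers rose, and 2 of 3 tendon markers rose and 1 fell. The satellite cell list had 2 of 4 genes tested, with 1 fall. None of the 5 neutrophil and lymphocyte markers was among the genes tested.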
